A study of Mus musculus with 2 samples.

Results

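The 10 genes described here encode lysosomal proteins, proteins that carry or break down lipid, and membrane proteins of the endosome and cell surface: Ctsb, Ctsd, Ctss, Ctsz, Grn, Apoe, Clu, Lpl, Cd63 and Cd9. They were taken by symbol from the feature table, which lists 19465 genes, and all 10 were present. Brain sections of male mice aged 6 months were profiled with Visium CytAssist, which joins probe pairs on each transcript, captures them on barcoded spots of a slide and counts single molecules by unique molecular identifiers (UMIs). A spot is a small area of tissue that can hold several cells of different types. There are 2 labelled samples, one from a G2-3 mouse carrying A53T alpha-synuclein and the other from a wild-type (WT) mouse, both with brain as tissue. No promoter for the G2-3 allele is given in the sources used here.

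The matrices deposited under the 2 samples were copies of 1 file. Of 8667725 nonzero entries, 0 differed, and 2722 of 2722 barcodes were shared, so the pair was counted as 1 sample. The genotypes could therefore not be compared, and the values below belong to 1 library, to which no genotype is assigned. Of 2487 spots marked as tissue in the WT list, 0 had no counts, and of 2969 marked in the G2-3 list, 751 had none. Spots used were those marked as tissue in the WT list with at least 500 UMIs. These were 2485 spots with 20997947 UMIs and a median of 6686 UMIs per spot (1183 to 80174). Of these UMIs 61700 came from the 10 genes, which is 0.294%. With 1 library there is no replicate and no test. Intervals are 95% exact intervals for counts and cover counting error only.

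Cathepsins are proteases that digest proteins inside the lysosome. Ctsb, Ctss and Ctsz are cysteine cathepsins and Ctsd is an aspartic one, and Grn encodes progranulin, a secreted protein that is taken to the lysosome and cut into granulins there. Apoe and Clu encode apolipoproteins that astrocytes secrete, and microglia can also make Apoe. Lpl encodes lipoprotein lipase, which breaks down triglycerides of lipoproteins. Cd63 and Cd9 encode tetraspanins, of late endosomes and lysosomes and of the cell surface. Several of these genes are known to rise in microglia in models of neurodegeneration.

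Transcription of many lysosomal genes is known to be driven by Tfeb through sites that contain CACGTG, and many genes of microglia by PU.1, which binds GAGGAA. These letters were searched on both strands in the 250 bases before each RefSeq gene start (build GRCm38.p6). A window was held for 7 of the 10 genes. CACGTG occurred in a window of 6.86% of all 27025 genes, and among the 7 genes in Ctsd, where it ended 239 and 92 bases before the start. GAGGAA occurred in a window of 25.9% of all genes and of 4 of the 7 genes, namely Ctss, Grn, Apoe and Cd63. The stretches below show the gene with the first motif, Ctsd, and Ctss and Grn, a pair of genes of one lysosomal route that carry the second and, as described further on, had different profiles over the section. Each has 120 bases on the gene's strand, with the motif in capitals; of the pair of Ctsd matches the nearer to the start is shown. The Ctsd stretch lies at chr7:142387866-142387985 on the minus strand, Ctss at chr3:95526562-95526681 on the plus strand and Grn at chr11:102430283-102430402 on the plus strand.
Ctsd: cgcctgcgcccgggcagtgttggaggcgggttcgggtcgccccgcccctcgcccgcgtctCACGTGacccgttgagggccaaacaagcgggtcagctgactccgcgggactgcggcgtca
Ctss: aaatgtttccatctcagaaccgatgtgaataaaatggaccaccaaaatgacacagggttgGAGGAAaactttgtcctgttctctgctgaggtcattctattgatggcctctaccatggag
Grn: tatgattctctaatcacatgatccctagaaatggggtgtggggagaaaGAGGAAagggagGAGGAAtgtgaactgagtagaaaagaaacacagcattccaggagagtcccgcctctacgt
A match is a description of these letters and not evidence of binding. The 250-base window of Ctsd had a GC content of 67.2% and that of Ctss 44.8%, against a median of 52.4% over all windows.

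The section was divided into 15 regions by clustering the spots without the 10 genes and without the genes of the cell type and pathway lists. Each region is called by its 2 leading genes. The C1ql2/Pcdh20 region (49 spots, median 33713 UMIs) had 6 of 7 dentate gyrus markers at least 2-fold higher than all other spots. It was surrounded on the map by the Ddn/Thrsp region (162 spots, median 3342 UMIs), in which the astrocyte markers summed to 19388 UMIs per 1000000 UMIs of all genes (CPM), against 6288 CPM in the other spots. The Gfap/Klk6 region (127 spots, median 2499 UMIs) had 14 of 14 oligodendrocyte markers and 4 of 7 meningeal markers at least 2-fold higher. The Mgp/Igf2 region (135 spots, median 5194 UMIs) had 7 of 7 meningeal markers at least 2-fold higher, and lay along the edges of the tissue. The Ttr/Agt region (65 spots, median 4223 UMIs) had 6 of 14 oligodendrocyte markers at least 2-fold higher. So were 4 ventral midbrain dopaminergic markers (Th, Slc6a3, En1 and Aldh1a1). The Clec18a/Igfn1 region (212 spots) had 5 of 7 upper cortex markers, the Ccn2/Cplx3 region (81 spots) 6 of 9 deep cortex markers, the Irx2/Cdh23 region (182 spots) 7 of 7 pons and hindbrain markers and the Cartpt/Baiap3 region (263 spots) 5 of 8 dorsal midbrain markers at that fold. These marker counts, used to describe the regions, were taken after a pseudocount of 10 CPM was added to each level, and the list counts further on without one. Levels are given as UMIs of a gene over all UMIs of a region, in CPM. They are compared between regions and not between genes, since probe numbers per gene are not known from the sources used here. In such sums, fewer cells of a type and less RNA per cell cannot be told apart.

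**Figure D1:**
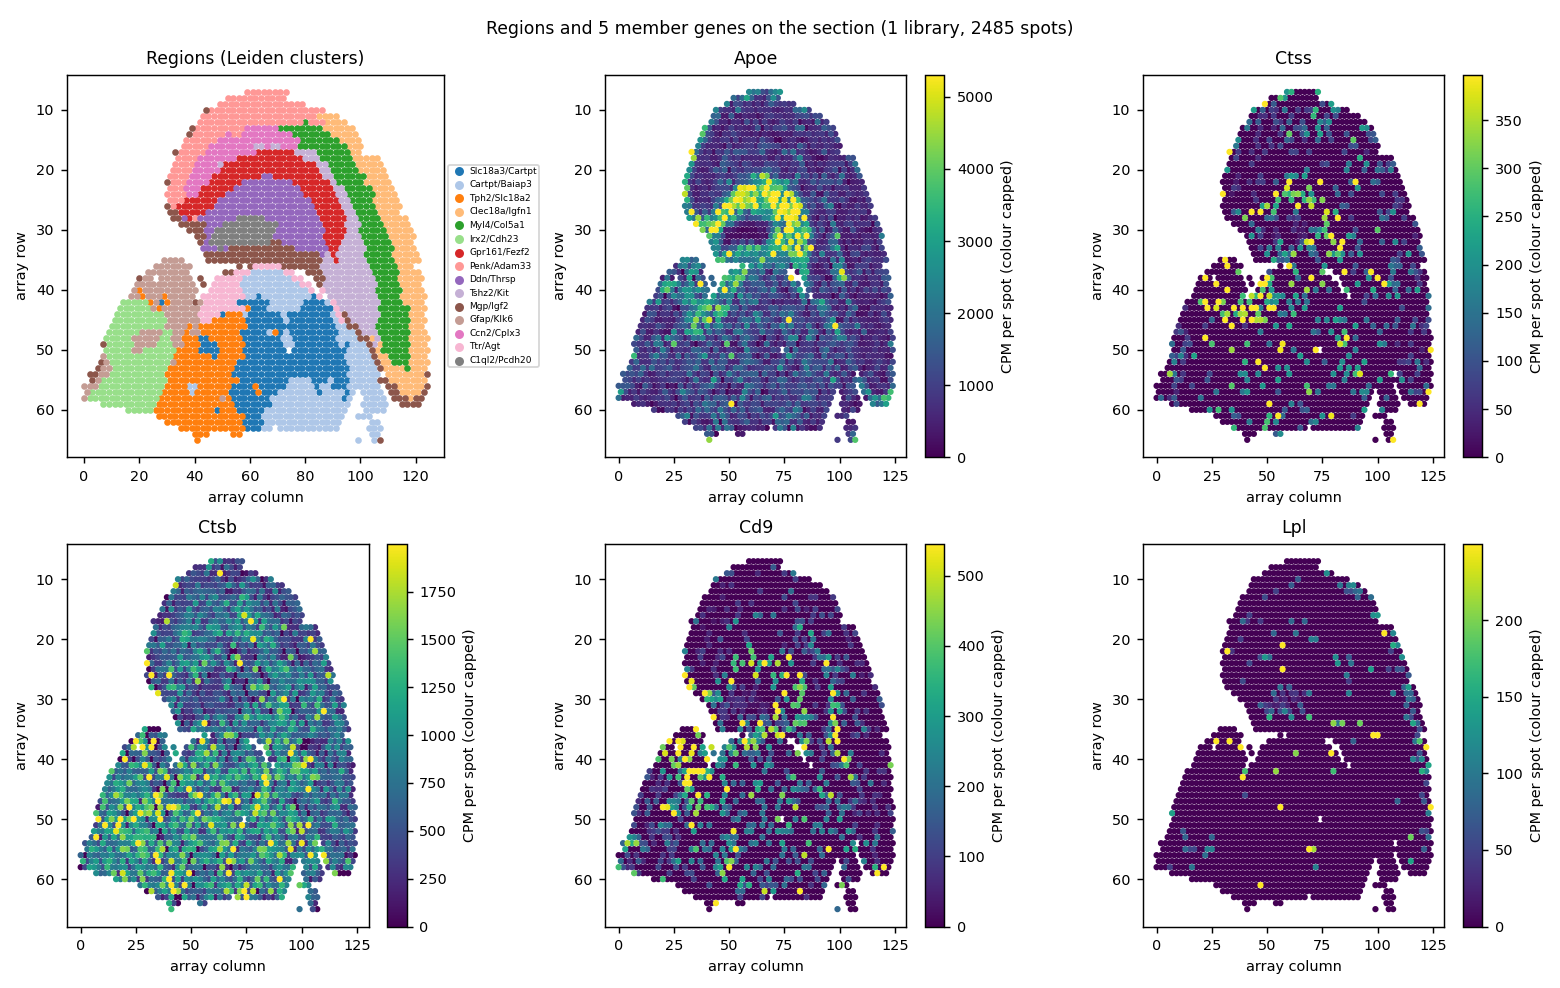
The first panel shows the 15 regions and the other panels the CPM of Apoe, Ctss, Ctsb, Cd9 and Lpl in each of the 2485 spots, by array column and array row, with the colour scale capped at high values. Apoe is bright in the Ddn/Thrsp region and dark in the C1ql2/Pcdh20 region that it surrounds, Ctsb is spread over the section, and Lpl is seen in few spots.

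The 4 cathepsins were all lowest in the C1ql2/Pcdh20 region. They differed in how far they varied and, apart from Ctsd and Ctss, in their highest region. Pearson correlations between them over the 15 regions ran from 0.29 (Ctsb and Ctss) to 0.81 (Ctsd and Ctss), with 0.74 for Ctsd and Ctsz. Ctsb varied least. Its level was 713 CPM over all spots (14966 UMIs, interval 701 to 724), and over the regions it ran from 410 CPM in the C1ql2/Pcdh20 region through a median of 764 CPM to 958 CPM in the Irx2/Cdh23 region, a ratio of 2.34. The Slc18a3/Cartpt region (958 CPM), the Ttr/Agt region (952 CPM) and the Tph2/Slc18a2 region (925 CPM) followed the Irx2/Cdh23 region, and no step between neighbours among these 4 exceeded the counting error. In the Ddn/Thrsp region Ctsb stood at 587 CPM (528 to 651), 1.22-fold lower than in all other spots, where Apoe and Clu were highest. It was past 2-fold in no region in either direction.

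Ctsd was highest in the Ttr/Agt region. Over the regions its level ran from 88.7 CPM in the C1ql2/Pcdh20 region through a median of 214 CPM to 460 CPM in the Ttr/Agt region (131 UMIs, interval 385 to 546). That region was 2.32-fold above all other spots, a log2 ratio of 1.22 (0.95 to 1.47). The Gfap/Klk6 region came next with 337 CPM, and the step from the Ttr/Agt region to it exceeded the counting error. The order from there through the Tph2/Slc18a2, Ddn/Thrsp, Slc18a3/Cartpt and Mgp/Igf2 regions (326 to 263 CPM) had no neighbouring step beyond the counting error. At the low end, the C1ql2/Pcdh20 region was 2.39-fold below all other spots.

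Ctss, the cathepsin known for its expression in microglia, had its highest level in the Ttr/Agt region too. Its level ran from 15.7 CPM in the C1ql2/Pcdh20 region (27 UMIs) through a median of 27.2 CPM to 151 CPM in the Ttr/Agt region (43 UMIs, interval 109 to 204). The Ttr/Agt region was 4.93-fold above all other spots. The Ddn/Thrsp region followed with 86.4 CPM, the Gfap/Klk6 region with 76.5 CPM and the Mgp/Igf2 region with 68.8 CPM, with no step between these neighbours beyond the counting error. The other 11 regions lay at 44.6 CPM or lower. The step from the Mgp/Igf2 region to the next, the Tph2/Slc18a2 region, had a log2 ratio of 0.63 with an interval that came close to 0 (0.03 to 1.22). In the 4 higher regions between 29 and 53 UMIs of Ctss were counted.

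Ctsz was highest in the Mgp/Igf2 region and lowest in the C1ql2/Pcdh20 region. The level was 150 CPM in the former (111 UMIs, interval 123 to 180), 3.02-fold above all other spots, and 12.2 CPM in the latter (21 UMIs), 4.67-fold below. The median region had 48.7 CPM. The Gfap/Klk6 region was also past 2-fold, with 105 CPM and a log2 ratio of 1.01 whose interval (0.52 to 1.47) held values on both sides of 2-fold.

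Grn was the flattest of the scarce genes. Its 532 UMIs gave 25.3 CPM over all spots, and the regions ran from 18.2 CPM in the Tph2/Slc18a2 region through a median of 23.3 CPM to 44.5 CPM in the Mgp/Igf2 region (33 UMIs, interval 30.7 to 62.6). Of the 14 steps between neighbours in the order, none exceeded the counting error for Grn. It was past 2-fold in no region. Against all other spots its log2 ratio had an interval above 0 in the Mgp/Igf2 region (0.85, 0.30 to 1.36). The same held in the Myl4/Col5a1 region (0.56, 0.19 to 0.91, on 76 UMIs). In the Ddn/Thrsp region Grn stood at 19.6 CPM on 12 UMIs, and in the Ttr/Agt region at 28.1 CPM on 8 UMIs. The region highest in Ctss was thus not among those where Grn could be told from the rest at this depth.

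Apoe and Clu were both highest in the Ddn/Thrsp region. Apoe stood at 3912 CPM there (2400 UMIs, interval 3757 to 4072), at 2687 CPM in the Mgp/Igf2 region, at 2270 CPM in the Ttr/Agt region and at 1990 CPM in the Gfap/Klk6 region, and each of these steps exceeded the counting error. The other regions lay between 425 and 1079 CPM, with a median over all 15 of 933 CPM. The Ddn/Thrsp region was 4.32-fold above all other spots, a log2 ratio of 2.11 (2.05 to 2.17). The lowest value, 425 CPM, belonged to the C1ql2/Pcdh20 region, 2.46-fold below all other spots. In CPM the extremes of Apoe thus lay side by side on the section. Per spot the Apoe UMIs were alike, with 14.8 in the Ddn/Thrsp region and 14.98 in the C1ql2/Pcdh20 region.

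Clu, or clusterin, followed with 3149 CPM in the Ddn/Thrsp region (1932 UMIs, interval 3010 to 3293), 4.11-fold above all other spots. The Mgp/Igf2 region had 1691 CPM, the Gfap/Klk6 region 1342 CPM, the Ttr/Agt region 1325 CPM and the Tshz2/Kit region 1226 CPM. The steps among the last 3 did not exceed the counting error. The lowest level was 369 CPM, again in the C1ql2/Pcdh20 region. Clu differed from Apoe in the Tshz2/Kit region, where Clu had a log2 ratio of 0.59 (0.50 to 0.67) over all other spots and Apoe one of -0.10 (-0.19 to -0.0013).

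Lpl was the scarcest gene, with 188 UMIs in 155 spots, and its profile was unlike those of the other 9. It was highest in the Clec18a/Igfn1 region, with 25.2 CPM (66 UMIs, interval 19.5 to 32.1), 3.80-fold above all other spots. The C1ql2/Pcdh20 region, lowest for 7 of the other genes, came next with 23.8 CPM (41 UMIs, interval 17.1 to 32.2), 3.12-fold above. The remaining regions held between 2 and 20 UMIs each, with the lowest level, 1.22 CPM, in the Cartpt/Baiap3 region. Of the partners of the lipase, Lmf1, needed for its folding, had log2 ratios of 0.07 (-0.21 to 0.35) and 0.56 (0.26 to 0.84) in the Clec18a/Igfn1 and C1ql2/Pcdh20 regions, and Sel1l, which aids its secretion, 0.09 (-0.25 to 0.43) and 0.24 (-0.16 to 0.63). Neither was past 2-fold.

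The tetraspanins Cd9 and Cd63 were highest in the Gfap/Klk6 and Mgp/Igf2 regions. Cd9 had 235 CPM in the Gfap/Klk6 region (89 UMIs, interval 188 to 289) and 180 CPM in the Mgp/Igf2 region (133 UMIs), 5.28-fold and 4.17-fold above all other spots. The Ddn/Thrsp region had 111 CPM and the median region 56.6 CPM. Cd9 fell to 10.8 CPM in the Penk/Adam33 region (24 UMIs), 4.85-fold below all other spots. Cd63 had 91.8 CPM in the Mgp/Igf2 region (68 UMIs) and 84.4 CPM in the Gfap/Klk6 region (32 UMIs), against a median of 30.04 CPM. The C1ql2/Pcdh20 region had 5.80 CPM of Cd63 on 10 UMIs, 4.70-fold below all other spots. No neighbouring step of Cd63 exceeded the counting error.

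**Figure D2:**
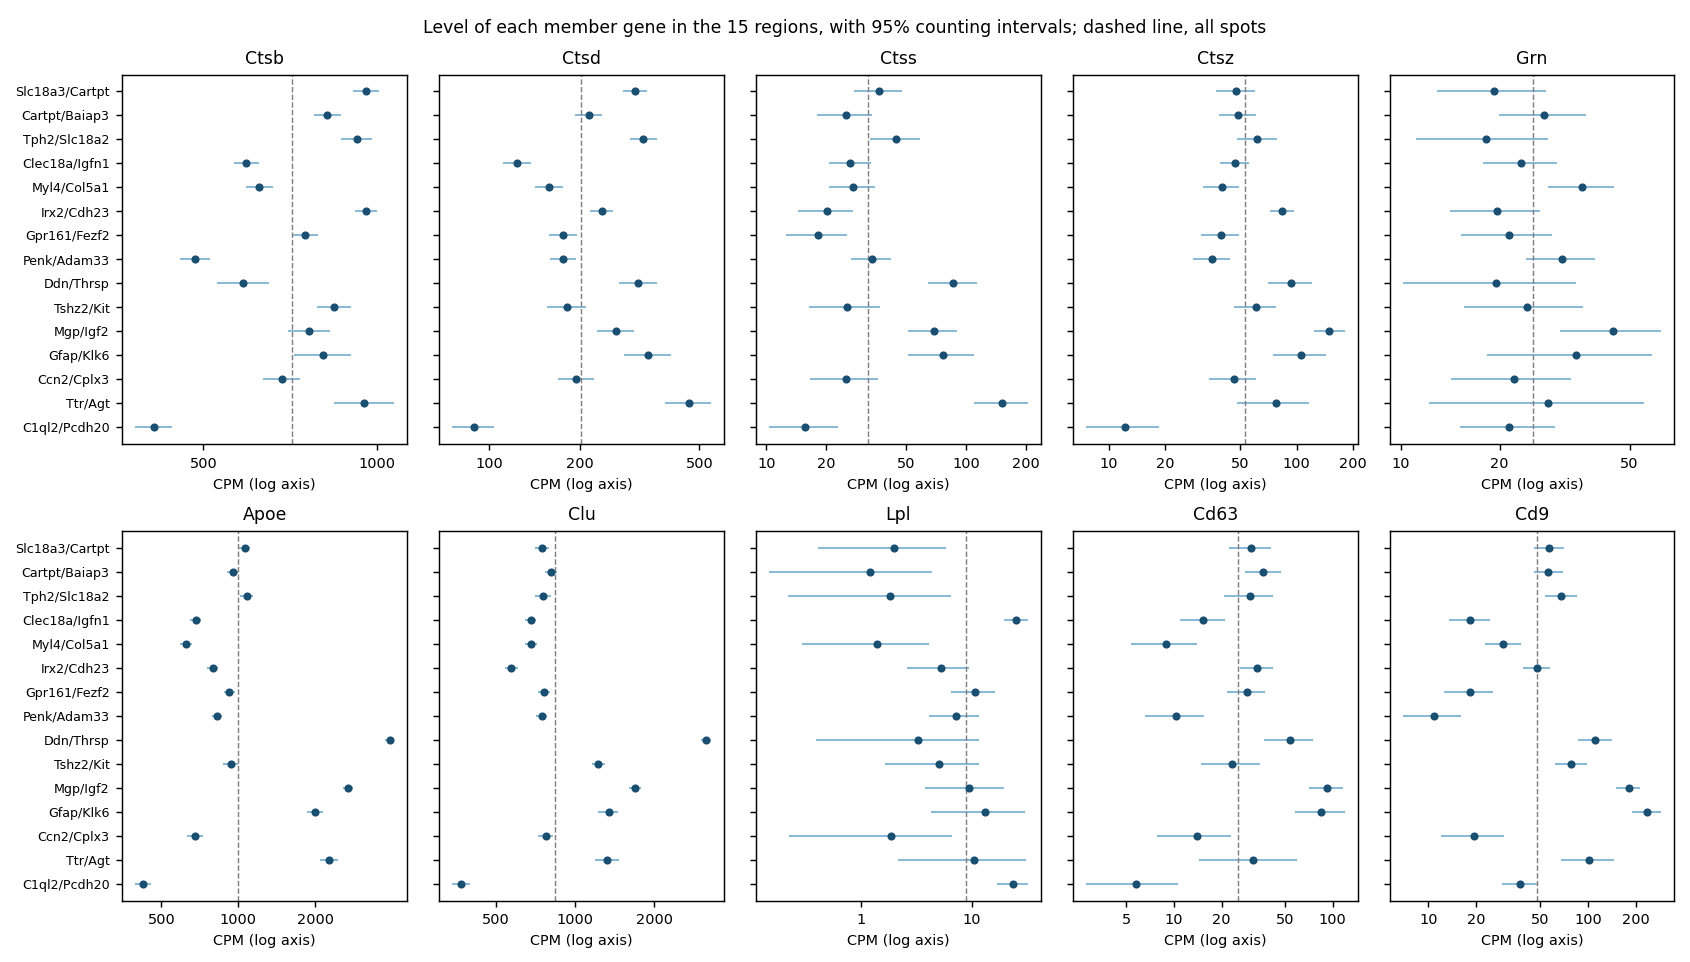
Each panel shows 1 gene, with its level in CPM on a log axis in each of the 15 regions, a bar for the 95% counting interval and a dashed line for the level over all spots. Apoe and Clu reach 3912 and 3149 CPM in the Ddn/Thrsp region, Ctsb and Grn stay within 2.34-fold and 2.45-fold from the lowest to the highest region, and Lpl is highest in the Clec18a/Igfn1 and C1ql2/Pcdh20 regions.

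Counted by region, 5 regions held several of the genes past 2-fold at once. In the Ddn/Thrsp region Ctss, Apoe, Clu, Cd63 and Cd9, 5 of 10, were at least 2-fold higher than all other spots, where 9% of 11003 genes with at least 100 UMIs were, and Lpl on 2 UMIs was at least 2-fold lower (12.3% of genes), with a log2 ratio of -1.48 whose interval (-4.54 to 0.39) held 0. In the Mgp/Igf2 region 6 of 10 were higher (Ctss, Ctsz, Apoe, Clu, Cd63 and Cd9), against 11.3% of genes. In the Gfap/Klk6 region 5 of 10 were higher (Ctss, Ctsz, Apoe, Cd63 and Cd9), against 11.4%. In the Ttr/Agt region 4 of 10 were higher (Ctsd, Ctss, Apoe and Cd9), against 9.4%. In the C1ql2/Pcdh20 region 6 of 10 were lower (Ctsd, Ctss, Ctsz, Apoe, Clu and Cd63), against 21.2%, and Lpl was higher (7.02%). The median log2 ratio of the 10 genes was 0.98 in the Ddn/Thrsp region, 1.11 in the Mgp/Igf2 region, 0.89 in the Gfap/Klk6 region, 0.61 in the Ttr/Agt region and -1.18 in the C1ql2/Pcdh20 region. Over all genes the median was -0.13, -0.16, -0.16, 0.00 and -0.09 in the same order.

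Outside these 5, few calls were made. Lpl was at least 2-fold higher in the Clec18a/Igfn1 region, where 2.23% of genes were. Cd9 was at least 2-fold lower in the Clec18a/Igfn1 region (7.49% of genes), the Gpr161/Fezf2 region (8.62%), with Cd63 in the Penk/Adam33 region (9.06%) and with Lpl in the Ccn2/Cplx3 region (11.9%). Cd63 and Lpl were lower in the Myl4/Col5a1 region (7.22%). Lpl, on 2 or 3 UMIs in each, was also lower in the Slc18a3/Cartpt region (7.73%), the Cartpt/Baiap3 region (5.93%) and the Tph2/Slc18a2 region (8.35%). The log2 ratios of Lpl were -2.25 (-4.54 to -0.68), -2.98 (-6.04 to -1.11) and -2.36 (-5.42 to -0.49) in these, -2.80 (-5.09 to -1.23) in the Myl4/Col5a1 region on 3 UMIs and -2.33 (-5.39 to -0.46) in the Ccn2/Cplx3 region on 2 UMIs. Apart from Lpl in the Clec18a/Igfn1 region, these are 1 or 2 of 10 genes in a region, against backgrounds of 5.93% to 11.9%.

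These region calls are relative to all UMIs of a region, and depth differed between the regions. Counted as UMIs per spot, without scaling, 0 genes were at least 2-fold higher in the Ddn/Thrsp region, 2 in the Mgp/Igf2 region, 0 in the Gfap/Klk6 region and 1 in the Ttr/Agt region, and 0 were lower in the C1ql2/Pcdh20 region. Apoe for example had 14.8 UMIs per spot in the Ddn/Thrsp region and 14.98 in the C1ql2/Pcdh20 region. Apoe and Clu kept log2 ratios above 0 in the Ddn/Thrsp region on that scale (0.90 and 0.83), and turned to 0.86 and 0.90 in the C1ql2/Pcdh20 region. With coarser clusters (resolution 0.6) these regions merged, and none of the 5 genes higher in the Ddn/Thrsp region was past 2-fold there, with Apoe at 0.51 and Clu at 0.46.

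Markers of several cell types moved with the genes in the same regions. In the Ddn/Thrsp region 11 of 13 astrocyte markers and 17 of 17 tested microglia markers were at least 2-fold higher, as were 7 of 8 endothelial and 5 of 6 tested mural markers, while 5 of 10 neuron markers were at least 2-fold lower. The microglia markers summed to 1733 CPM there against 520 CPM in other spots. In the Mgp/Igf2 region the sums were 13891 CPM for astrocyte, 1478 CPM for microglia, 5361 CPM for meningeal fibroblast and 240 CPM for border macrophage markers, the last against 7.45 CPM elsewhere, with Lyve1 at 0. In the Gfap/Klk6 region oligodendrocyte markers summed to 49756 CPM against 6576 CPM, and microglia markers to 1260 CPM. Mural markers there (6 of 6 tested at least 2-fold higher) summed to 348 against 125 CPM. Meningeal fibroblast markers (5 of 6 tested) summed to 949 against 334 CPM and reactive astrocyte markers (4 of 4) to 3720 against 395 CPM. Of 8 endothelial markers, 5 were at least 2-fold higher. In the Ttr/Agt region the sums were 1676 against 540 CPM for microglia (15 of 17 tested markers at least 2-fold higher), 11223 against 6608 CPM for astrocyte (9 of 13) and 13953 against 7265 CPM for oligodendrocyte markers (8 of 13 tested). Reactive astrocyte markers summed there to 1606 against 439 CPM (1 of 4 at that fold). Meningeal fibroblast markers summed to 727 against 340 CPM (3 of 6 tested), and choroid plexus and ependyma markers to 520 against 132 CPM (2 of 3 tested). In the C1ql2/Pcdh20 region 11 of 13 astrocyte, 13 of 17 tested microglia and 13 of 13 tested oligodendrocyte markers were at least 2-fold lower, with Gjc3 and Aspa at 0. The part of each cell type in the levels of the 10 genes was not tested region by region.

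Across the 15 regions, Apoe had Pearson r = 0.93 and Spearman rho = 0.89 with the summed astrocyte markers and r = 0.95 and rho = 0.85 with the microglia markers. Its r was 0.89 with mural (rho = 0.95) and 0.88 with endothelial markers (rho = 0.92). Clu had r = 0.95 and rho = 0.81 with astrocyte markers and r = 0.90 and rho = 0.75 with microglia markers. Ctss had r = 0.95 and rho = 0.94 with microglia markers, r = 0.79 with astrocyte and r = 0.76 with endothelial markers. Ctsb had r = 0.42 with neuron and r = 0.33 with astrocyte markers, and its highest value was r = 0.85 with oligodendrocyte markers. Ctsz and Cd63 had their highest values with endothelial markers (r = 0.93 for both). Cd9 had r = 0.87 with reactive astrocyte, 0.84 with mural and 0.75 with oligodendrocyte markers. The regions are of 1 library, share its depth differences and were built from genes that vary together with these markers, so these values only describe the section. Without the 2 regions farthest from the median marker level, r for Apoe was 0.92 with astrocyte, 0.93 with microglia and 0.94 with mural markers. For Clu it was then 0.88 with astrocyte and 0.90 with microglia markers. For Ctss it was 0.95 with microglia and 0.81 with astrocyte markers, and for Ctsb 0.71 with oligodendrocyte markers.

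Per 1000 UMIs of astrocyte or of microglia markers, Clu, Apoe, Ctss, Ctsz, Cd63, Cd9 and Ctsd varied less over the section than per UMI of all genes. Clu ran from 104 to 168 UMIs per 1000 astrocyte marker UMIs, and the standard deviation (SD) of its log2 level over the 15 regions was 0.24, against 0.74 per UMI of all genes. Apoe ran from 105 in the Clec18a/Igfn1 region to 243 in the Gfap/Klk6 region per 1000 astrocyte marker UMIs (SD 0.35, against 0.88), and its SD per microglia marker UMI was 0.28. Ctss ran from 46.6 in the Mgp/Igf2 region to 90.1 in the Ttr/Agt region per 1000 microglia marker UMIs (SD 0.27, against 0.94). The highest region of Ctss by CPM was thus also the highest per microglia marker UMI, on 43 Ctss and 477 marker UMIs. The Tph2/Slc18a2 region came next with 72.7, on 49 Ctss and 674 marker UMIs, and no interval was made for this step. The SD of Clu per microglia marker UMI was 0.39 and that of Ctss per astrocyte marker UMI 0.57. Per astrocyte and per microglia marker UMI, Ctsz had SDs of 0.47 and 0.56 (against 0.84) and Cd63 of 0.78 and 0.79 (against 1.14). Those of Cd9 were 1.07 and 0.92 (against 1.29) and of Ctsd 0.50 and 0.58 (against 0.62). For Ctsb the SD was 0.37 per UMI of all genes. It rose to 0.57 per neuron, 0.66 per astrocyte, 0.86 per microglia and 1.61 per oligodendrocyte marker UMI. It also rose for Grn (0.68 per astrocyte and 0.81 per microglia marker UMI, against 0.38) and Lpl (1.67 and 1.66, against 1.46). Dividing by a scarce sum of markers adds counting error of that sum.

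**Figure D3:**
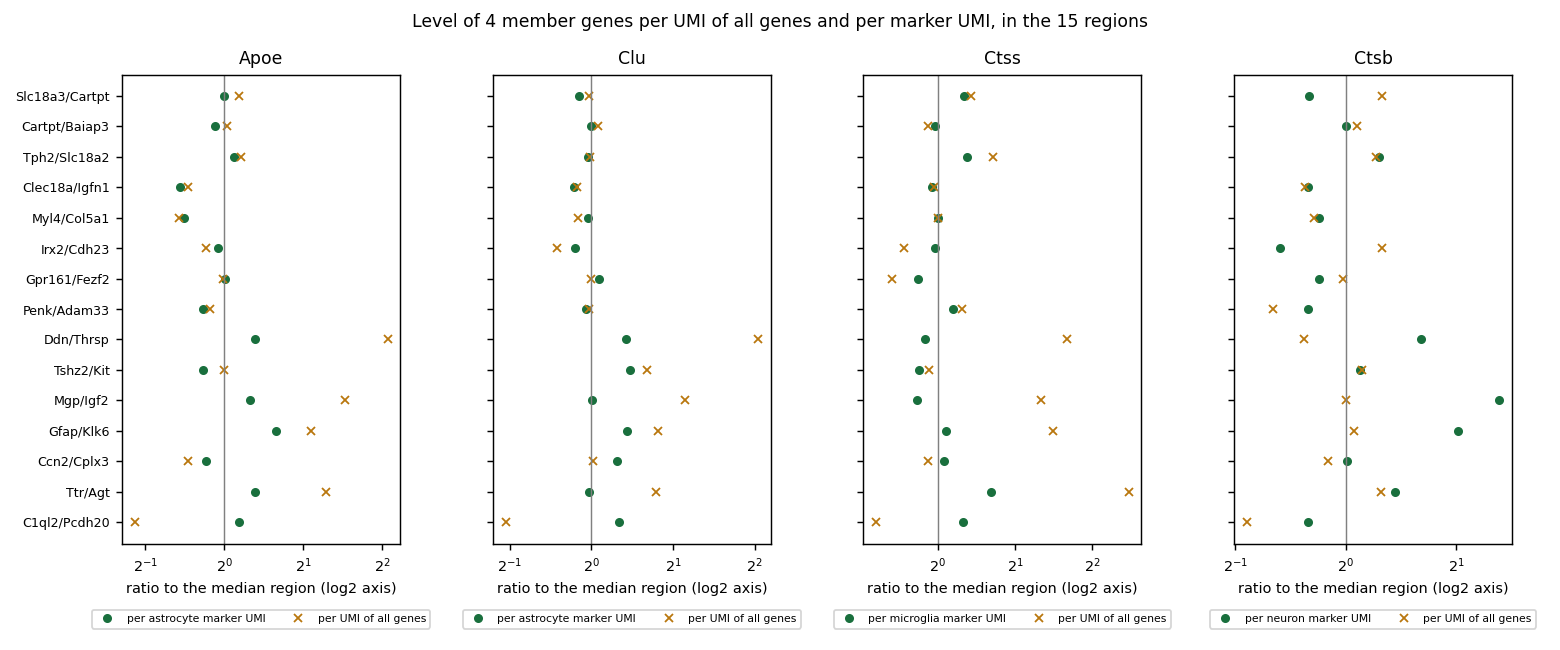
For Apoe, Clu, Ctss and Ctsb, circles show the level per UMI of the named cell type's markers and crosses the level per UMI of all genes in each of the 15 regions, each divided by its median region, on a log2 axis. The circles of Clu and Ctss lie closer to 1 than the crosses (SD of log2 0.24 and 0.27 against 0.74 and 0.94), while those of Ctsb lie farther from it (0.57 against 0.37).

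To compare spots within regions, spots of each region and depth class were ranked by their share of the markers of 1 cell type and divided into 3 equal parts, and the marker-rich part (806 spots) was compared with the marker-poor part (806 spots). None of the 10 genes is in the marker lists. A gene was called past 1.5-fold. The background is low in this comparison: by microglia markers 0.97% of 10105 genes were higher and 0.238% lower, by astrocyte markers 0.888% and 0.424%, by neuron markers 0.455% and 2.21%, and by oligodendrocyte markers 1.34% and 0.661%.

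Ctss, by microglia markers, was the call among the 10 genes over the 4 splits. It was counted with 280 UMIs (41.7 CPM) in microglia-rich and 157 UMIs (22.9 CPM) in microglia-poor spots, a 1.82-fold difference or a log2 ratio of 0.86 (0.58 to 1.16). It was higher in 11 of the 11 regions with at least 20 UMIs on both sides together, from a log2 ratio of 0.31 in the Myl4/Col5a1 region to 2.07 in the Ttr/Agt region. In the same split the microglia markers differed 4.28-fold (946 against 221 CPM). The border macrophage markers stood at 20.4 against 10.2 CPM (4 of 7 markers higher, Lyve1 at 0 in both), and meningeal fibroblast markers were 1.46-fold and mural markers 1.40-fold higher. The part of these other cells in the Ctss difference was not tested. With every spot thinned to 1000 UMIs, which left a median of 0 microglia marker UMIs per spot, the Ctss log2 ratio was -0.0444 (-0.79 to 0.70) on 32 against 33 UMIs, and thinned to 4000 UMIs, in 1961 spots, it was 0.99 (0.524 to 1.465).

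Other genes were also higher in microglia-rich spots, by less than 1.5-fold. Cd9 had a log2 ratio of 0.40 (0.17 to 0.63) and Cd63 of 0.39 (0.08 to 0.70). Ctsd stood at 219 against 184 CPM, a log2 ratio of 0.25 (0.14 to 0.36), and was higher in 13 of 15 regions. For Apoe the log2 ratio was 0.18 (0.13 to 0.23) and for Clu 0.10 (0.04 to 0.15). The intervals of Ctsz (0.19, -0.02 to 0.41), Grn (0.09, -0.22 to 0.39), Lpl (0.14, -0.38 to 0.67) and Ctsb (-0.04, -0.10 to 0.02) held 0.

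By astrocyte markers, Apoe and Clu were higher by less than 1.5-fold. Apoe was counted at 1120 CPM in astrocyte-rich and 864 CPM in astrocyte-poor spots, a 1.30-fold difference or a log2 ratio of 0.38 (0.33 to 0.42), and was higher in 15 of 15 regions. Its log2 ratio ran from 0.03 in the Slc18a3/Cartpt region to 0.67 in the Penk/Adam33 region. Clu was counted at 921 against 767 CPM, a log2 ratio of 0.26 (0.21 to 0.32), and was higher in 14 of 15 regions. The astrocyte markers themselves differed 1.91-fold, and the microglia markers 1.20-fold in the same direction, with 18 of 19 higher. Endothelial markers (8 of 8 higher) and reactive astrocyte markers (2 of 4 higher) were each 1.22-fold higher as well, and the part of these cells was not tested. The size of the Apoe ratio followed the strata: it was 0.69 with ranks within regions only, 0.54 with strata from coarser clusters and 1.53 with ranks over all spots. Ctsz had a log2 ratio of 0.23 (0.02 to 0.44), and the intervals of the other 7 genes held 0.

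By neuron markers, Ctsb was the gene of the 10 whose interval lay above 0. It was counted at 759 CPM in neuron-rich and 685 CPM in neuron-poor spots, a log2 ratio of 0.15 (0.09 to 0.21), and was higher in 10 of 15 regions. In the Mgp/Igf2 region Ctsb went the other way (-0.62, -0.93 to -0.32). Without the 2 most counted neuron markers the log2 ratio of Ctsb was 0.0776, thinned to 1000 UMIs it was -0.0184 and with ranks over all spots 0.55. Ctss (-0.44), Cd9 (-0.36), Cd63 (-0.36), Grn (-0.33), Clu (-0.21) and Apoe (-0.12) were lower in neuron-rich spots with intervals below 0. None of these reached 1.5-fold. Meningeal fibroblast markers were lower in the same spots (log2 ratio -1.41, 0 of 7 higher), as were mural (-1.06), border macrophage (-1.32) and reactive astrocyte markers (-0.82), and their part in these differences was not tested.

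By oligodendrocyte markers, Cd9 was counted at 56.6 against 43.0 CPM, a log2 ratio of 0.40 (0.17 to 0.62), and was higher in 9 of 12 regions. Thinned to 1000 UMIs the ratio was -0.0825 on 51 against 54 UMIs, and with ranks over all spots it was 1.99. Lpl was lower on 48 against 76 UMIs, a log2 ratio of -0.57 (-1.12 to -0.02). Clu had a log2 ratio of 0.09 (0.04 to 0.15), and the intervals of the other 7 genes held 0. Among these was Ctsb (-0.0093, -0.067 to 0.048), which across regions had r = 0.85 with oligodendrocyte markers. Oligodendrocyte precursor markers differed 1.33-fold and border macrophage markers 1.68-fold in the same direction.

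**Figure D4:**
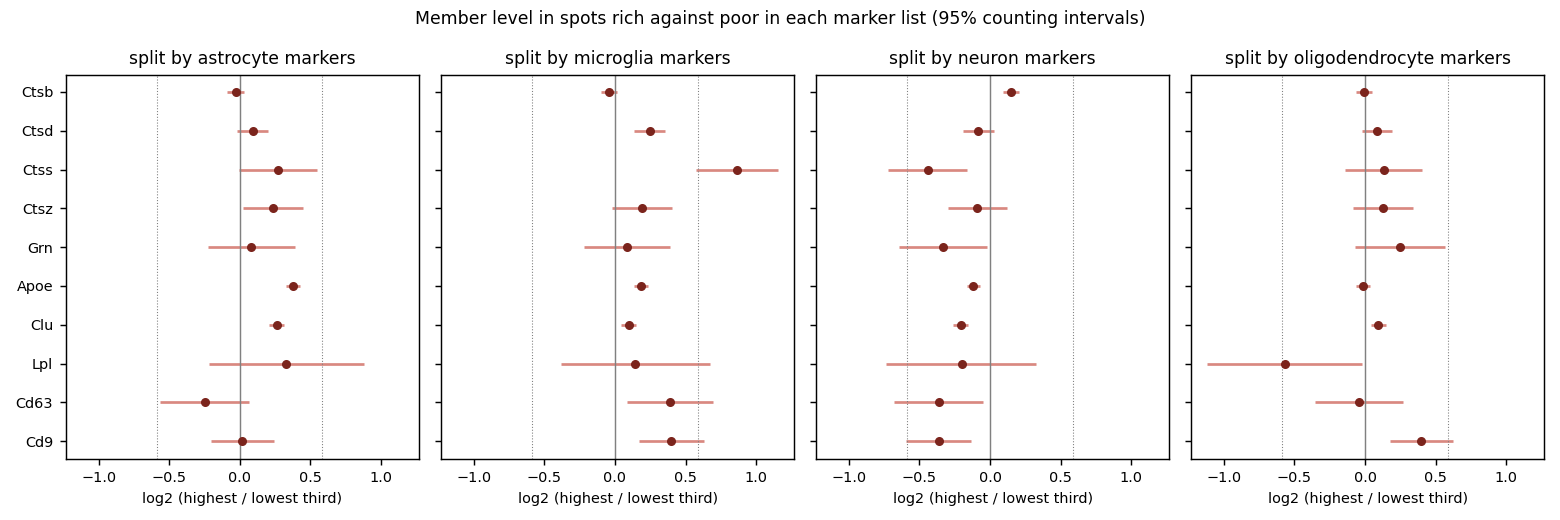
Each panel shows the log2 ratio of the 10 genes between the spots rich and poor in the markers of 1 cell type, with bars for 95% counting intervals and dotted lines at 1.5-fold. Ctss by microglia markers (0.86) is the point beyond a dotted line, Apoe (0.38) and Clu (0.26) lie above 0 by astrocyte markers, and Ctsb (0.15) lies above 0 by neuron markers.

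The other genes of the same pathways, in lists chosen with earlier results of these data known, were past 2-fold in part in the same regions. Of the other cathepsins and their inhibitors, 8 of 13 were tested. The shares of all genes at least 2-fold higher and lower, to set beside the counts of each list, were 9% and 12.3% in the Ddn/Thrsp region, 11.3% and 14.3% in the Mgp/Igf2 region, 11.4% and 18.9% in the Gfap/Klk6 region, 9.4% and 10.3% in the Ttr/Agt region and 7.02% and 21.2% in the C1ql2/Pcdh20 region. In the Ddn/Thrsp region 3 of the 8 were higher, with Cst3, the secreted cysteine protease inhibitor cystatin C, at 7894 CPM against 2172 CPM, and the list's median log2 ratio was 0.70. In the Mgp/Igf2 region 5 of 8 were higher (median 1.16), with Ctsc 11.8-fold and Ctsh 4.66-fold. In the Ttr/Agt region 4 of 8 were higher, among them Ctsh (5.31-fold). In the C1ql2/Pcdh20 region 6 of 8 were lower (median -1.56), with Lgmn, the asparagine-specific lysosomal protease, 3.77-fold lower.

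Lysosomal hydrolases and genes of lysosomal lipid handling had medians nearer 0. Of 24 tested, 2 were higher and 1 lower in the Ddn/Thrsp region, 4 and 1 in the Mgp/Igf2 region, 4 and 1 in the Gfap/Klk6 region, 3 and 0 in the Ttr/Agt region and 0 and 3 in the C1ql2/Pcdh20 region, with medians of 0.23, 0.40, 0.36, 0.16 and -0.52. These counts lie near or below the shares of all genes. Slightly above them are 4 of 24 higher in the Mgp/Igf2 and Gfap/Klk6 regions and 3 of 24 higher in the Ttr/Agt region. Npc1, a lysosomal cholesterol transporter, was 3.05-fold higher in the Gfap/Klk6 region. Of 18 lysosomal membrane, sorting and regulatory genes, 5 were higher in the Gfap/Klk6 region, among them Tfeb, the regulator named above (3.83-fold), and Lamp1 (2.79-fold), 1 was higher and 3 lower in the Ddn/Thrsp and Mgp/Igf2 regions each, and 2 were higher in the Ttr/Agt region, with Cd68 2.83-fold on 13 UMIs. In the C1ql2/Pcdh20 region 4 of 18 were lower, near the share of all genes there, with Tfeb 8.53-fold. The medians of that list were 0.01, -0.02, 0.13, -0.03 and -0.30 in the order used for the hydrolases.

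Of 20 tested receptors, transporters and partners of Apoe, Clu and Lpl, 8 were higher and 2 lower in the Mgp/Igf2 region, 6 and 1 in the Ttr/Agt region, 4 and 2 in the Ddn/Thrsp region, 4 and 0 in the Gfap/Klk6 region and 2 and 13 in the C1ql2/Pcdh20 region, with medians of 0.30, 0.16, 0.18, 0.56 and -1.10. Apoc1, an apolipoprotein whose gene neighbours Apoe, was 8.73-fold higher in the Ttr/Agt region on 15 UMIs, and Abca1, which loads lipid onto apolipoproteins, 4.37-fold. Apod, an apolipoprotein of oligodendrocytes and other glia, was 8.35-fold higher in the Gfap/Klk6 region and 21.5-fold lower in the C1ql2/Pcdh20 region. Apod was also past 1.5-fold in the oligodendrocyte split (log2 ratio 0.72) and, downwards, in the neuron split (-0.64). Of 11 tested tetraspanins and partners, 5 were higher in the Gfap/Klk6 region, led by Cd82 (9.35-fold) and Tspan2 (5.06-fold), with 1 lower, and 5 in the Mgp/Igf2 region, with medians of 0.80 and 0.89. In the C1ql2/Pcdh20 region 4 were lower (median -0.66). Cd82 (0.68) and Tspan2 (0.60) were the 2 of that list called by oligodendrocyte markers.

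Of the disease-associated microglia list, 11 genes were in the panel and 6 of these had enough UMIs to be tested. In the Ddn/Thrsp region 4 were higher, among them Trem2, a lipid-sensing receptor of microglia (103 against 24.7 CPM), and its signalling partner Tyrobp (4.23-fold), and 2 were lower, led by Spp1 (6.03-fold lower on 4 UMIs). The list's median was 1.44 there, with 4 higher in the Mgp/Igf2 region (1.08), 1 in the Gfap/Klk6 region (0.47), 3 in the Ttr/Agt region (0.59) and 4 lower in the C1ql2/Pcdh20 region (-1.95). Trem2 and Tyrobp are also on the microglia marker list, on which 17 of 17 tested genes were at least 2-fold higher in that region. Of the 3 tested between microglia-rich and microglia-poor spots, 0 were past 1.5-fold.

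Among 6869 genes with at least 500 UMIs, those whose log2 level over the 15 regions was most like that of a member were found by Pearson correlation. For Apoe they were Mt2 (0.99), Mt1 (0.98) and Sdc4 (0.97), and for Clu Gstm1 (0.96), Prdx6 (0.96) and Lrrc58 (0.96). For Ctss they included the complement genes C1qb and C1qc (0.94 each). Those nearest to Ctsb were Pik3ca (0.96), Sec62 and Osbpl9, and to Ctsd Prkag1 (0.96), Adgrg1 and Rhoa. Ctsz was most like Acvrl1 (0.97), Cd63 most like Serp1 (0.94) and Cd9 most like Appl2 (0.95). The nearest gene to Grn was Col6a2 at 0.77, the lowest such value of the 9 genes searched, and Lpl had too few UMIs. Among the members themselves, Apoe and Clu had r = 0.93, Ctsz and Cd63 0.88, Ctss and Apoe 0.87 and Ctsb and Grn -0.10. Mt1, Mt2, Sdc4, Prdx6, Adgrg1, Rhoa, Acvrl1, Col6a2 and Appl2 were among the genes that built the regions.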

How the data were processed

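Space Ranger 3.1.1 made the deposited UMI counts, which are whole numbers for each gene and spot, per the file headers. The build named in the submitters' processing notes is mm10. How reads were counted, and with which probe set, is not stated here. The deposited position lists mark spots over tissue. The 10 genes and all lists were chosen with earlier results of these data known.

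Clustering used scanpy 1.11.5 (10000 counts per spot, log, 2000 variable genes, 30 components, 15 neighbours, Leiden resolution 1, seed 0; igraph 0.11.9), without 215 member and list genes. Other genes that vary with these stayed in. Leading genes used CPM plus 10. Neither doublet calling nor deconvolution was run.

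UMIs were summed over spots. Levels have exact Poisson intervals and ratios exact conditional (Clopper-Pearson) intervals (scipy 1.17.1), which cover counting error only, since PCR copies and spots of 1 section are not independent samples. A count of 0 was set to 3 counts. Genes needed 100 UMIs over both sides. Marker splits used up to 4 depth classes of at least 12 spots per region. The scripts were tested on simulated data.

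Named were all members, the 3 genes most alike to each by region (log2 of CPM plus 10), up to 4 genes of each list with the largest ratio in a comparison given, the 2 leading genes of each region and defining markers that moved with a member. Lmf1 and Sel1l lie outside that rule and were chosen after their values were seen. Alternatives included TMM scaling (edgeR 4.0.16 in R 4.3.3), other clusterings, UMI minimums, scalings, parts of the section and marker strata. Promoter windows are RefSeq's. One gene that the naming rule selects is not reported here.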

Additional observations from a re-analysis of the deposited data

Results flagged for a closer look

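Spots outside the WT tissue mark also held counts of the 10 genes, in data that the comparisons above do not use. On 235 such spots 697435 UMIs were counted, of which 2687 came from the 10 genes, or 0.385% against 0.294% on the spots used. The median was 2507 UMIs per such spot. Apoe stood at 1524 CPM there, against 994 CPM on the spots used, Clu at 1108 against 837 CPM, Ctsz at 100.4 against 53.2 CPM and Ctsb at 662 against 713 CPM. Of the 235 spots, 119 are marked as tissue in the G2-3 list.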

How the results depend on the processing

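The region counts rest on scaling the summed UMIs of a region to the region's total. Counted as UMIs per spot, the members at least 2-fold higher were 0 in the Ddn/Thrsp region, 2 in the Mgp/Igf2 region, 0 in the Gfap/Klk6 region and 1 in the Ttr/Agt region, and 0 were lower in the C1ql2/Pcdh20 region. On that scale log2 ratios turned for Cd63 in the Ddn/Thrsp region (-0.0852), for Ctss (-0.27), Ctsz (-0.54) and Apoe (-0.52) in the Gfap/Klk6 region, and for Ctsd (0.90), Ctss (1.04), Apoe (0.86) and Clu (0.90) in the C1ql2/Pcdh20 region. With each spot weighted equally, 3 members were higher in the Ddn/Thrsp region and 2 in the Ttr/Agt region. In the lower array columns 3 were higher in the Ddn/Thrsp region. At Leiden resolution 0.6 the C1ql2/Pcdh20 spots merged with the Ddn/Thrsp region, so that the 1 member higher there was Lpl, which turned (1.23), none of the 5 main calls remained, Cd63 turned (-0.53), and Apoe fell to 0.51 and Clu to 0.46; the C1ql2/Pcdh20 region has no value at that resolution. At resolution 1.5, 3 members were lower in the C1ql2/Pcdh20 region. Regions with under 20 spots in a part of the section have no value for it. TMM scaling and a minimum of 2000 UMIs left all 5 counts as they were.

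The marker splits rest on the strata. With ranks within regions only, the log2 ratio was 0.69 for Apoe by astrocyte, 1.24 for Ctss by microglia and 0.64 for Cd9 by oligodendrocyte markers, and with ranks over all spots 1.53, 1.79 and 1.99, with 0.55 for Ctsb by neuron markers. Apoe had 0.28 with 2 equal parts of spots in place of 3 and 0.54 with strata from resolution 0.6. Thinned to 1000 UMIs, Apoe had 0.21, Ctss -0.0444, Ctsb -0.0184 and Cd9 -0.0825. Thinning to 4000 UMIs, chosen after seeing the data, gave Apoe 0.30 and moved Ctss, Ctsb and Cd9 by less than their counting intervals. Without the 2 most counted neuron markers Ctsb had 0.0776. The cause of these differences was not tested. Of all values over all alternatives, 293 of 396 in the marker splits stayed within the main counting interval. The sign differed from the main one in 55 of the 396, of which 1 belonged to a ratio past 1.5-fold (Ctss). Of the region values, all of calls past 2-fold, 221 stayed, 54 moved and 10 turned sign. No paired analysis was possible because there is 1 library. Lpl, Grn and Cd63 had the fewest UMIs (188, 532 and 535). None of their steps between neighbours in the order of level exceeded counting error, but sorting by level makes such steps small. Against all other spots, intervals lay above 0 for Lpl in the Clec18a/Igfn1 region (log2 ratio 1.93, 1.47 to 2.37). They also did so in the Mgp/Igf2 region for Cd63 (1.99, 1.60 to 2.36) and Grn (0.85, 0.30 to 1.36).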
